A study of Mus musculus with 9 samples.

Results

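The genes described here are 39 interferon-stimulated genes, out of 54532 genes in the count table of the series. They were taken from a written list of gene symbols, and all 39 were found under 1 Ensembl identifier each. The list was chosen with earlier results of these data known. By role they are 3 transcription factors of the interferon pathway, 5 sensors of foreign or misplaced nucleic acid, 4 members of the IFIT family, 5 members of the OAS family, 3 genes of the ISG15 system, 13 Mx and other antiviral effectors, 5 interferon-inducible GTPases and the peptide transporter gene Tap1. They lie on 15 chromosomes. The 4 IFIT genes are neighbours on chromosome 19, the 5 OAS genes are all on chromosome 5, and the 3 guanylate-binding protein genes (Gbp2, Gbp3, Gbp7) are on chromosome 3.

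Interferons are secreted proteins that warn neighbouring cells of infection or tissue damage. Type I interferons act through the receptor chains IFNAR1 and IFNAR2 and a complex that holds STAT2 and IRF9, which binds the interferon-stimulated response element in the promoters of its target genes. Interferon gamma, made mainly by T cells and NK cells, acts through IFNGR1 and IFNGR2 and on promoters with the gamma-activated site, and many of its targets are GTPases of the GBP and IRG families. In injured muscle, infiltrating macrophages are among the cells that express such genes.

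RNA was sequenced from injured tibialis anterior muscle of C57BL/6J mice in 9 libraries, 3 for each of 3 groups. All mice were injected with BaCl2, which kills muscle fibres and so sets off their regeneration. Young PBS mice (4 months) and old PBS mice (24 months) then received 3 intramuscular injections of PBS, and old rMETRNL mice (24 months) received 3 injections of recombinant METRNL (Meteorin-like), a cytokine-like protein secreted by macrophages and other cells. No uninjured muscle and no young mice given rMETRNL are among the libraries used here, so every level is one of injured muscle. The dose of rMETRNL is 0.1 ug in the results of the study and 0.1 ng in its methods. The study describes whole muscle at day 8 after injury, whereas the labels describe a suspension of muscle cells and the text of the series gives day 4. Libraries are named by the replicate numbers of the labels, which are 2 to 4 for old PBS and 1 to 3 for both other groups.

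The libraries held between 16238700 and 22522560 counts. Markers of mature muscle fibres summed to between 75591 and 130816 CPM (counts scaled to library size), so muscle RNA was plentiful in each library. The lowest sum was that of old PBS 3, and the other libraries had at least 101812 CPM. Old PBS 3 stood apart from the other old PBS libraries. Its new muscle fibre markers, a list of 7 genes such as embryonic myosin Myh3, summed to 4655 CPM, against 1282 and 597 CPM in old PBS 2 and old PBS 4 and between 1603 and 2196 CPM in the other 6 libraries. All 3 old PBS libraries also held brain markers, which summed to between 51.7 and 149 CPM against between 3.33 and 5.70 CPM elsewhere, and liver markers, at between 5.72 and 82.9 CPM against at most 0.535 CPM. These libraries enter every comparison with old PBS, and the part of such RNA in the results was not tested. The results that rest on old PBS 3 are given with and without it. Nothing in the labels says that the libraries of a group came from separate animals, so p-values measure the spread between these libraries.

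The promoters of the members carried a shared sequence more often than promoters at large. Promoter sequences (RefSeq, GRCm38.p6, 250 bases before and 50 bases after a transcription start site) were found for 29 of the 39 genes. The core of the interferon-stimulated response element was searched as TTTC, any 2 bases and TTTC again, on both strands, so that a match on the other strand reads GAAA, any 2 bases and GAAA. It was present in 18 of the 29 genes (62.1%) and in 1079 of all 27025 genes of the table (3.99%). In 13 genes a match lay within the last 150 bases before the start site, and 8 genes had 2 or more matches in 1 promoter. The letters TTCNNNGAA, which read the same on both strands, are a core of the gamma-activated site. They were present in 7 of the 29 genes (24.1%) and in 9.55% of all genes. A match is a description of the letters and not evidence of binding.

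The stretches below show the matches to this core in capitals, 5′ to 3′ on the strand of the gene, with overlapping matches joined in 1 run. The promoters of Isg15, which has 3 overlapping matches, and of Igtp are given over the 250 bases before the start site. Igtp is the member with the lowest p-value in rMETRNL against old PBS, where no member passed by edgeR. In Igtp a match to the gamma-activated site core also starts 45 bases before the start site, just upstream of the capitals. For 8 other genes a window of 50 bases around the matches is shown.
Isg15 (chr4:156200819-156201068, - strand): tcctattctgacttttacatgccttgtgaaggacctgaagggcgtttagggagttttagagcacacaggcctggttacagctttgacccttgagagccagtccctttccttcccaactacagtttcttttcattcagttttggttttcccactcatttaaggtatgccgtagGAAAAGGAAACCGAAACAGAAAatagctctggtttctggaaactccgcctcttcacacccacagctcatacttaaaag
Igtp (chr11:58199306-58199555, + strand): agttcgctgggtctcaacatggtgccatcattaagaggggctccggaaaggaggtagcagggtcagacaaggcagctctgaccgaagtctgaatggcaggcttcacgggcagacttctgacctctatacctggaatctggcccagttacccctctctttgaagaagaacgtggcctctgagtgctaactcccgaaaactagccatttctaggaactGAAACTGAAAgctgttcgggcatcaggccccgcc
Ifit1 (chr19:34640774-34640823, + strand): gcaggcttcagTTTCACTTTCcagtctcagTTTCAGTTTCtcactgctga
Ifit3 (chr19:34583370-34583419, + strand): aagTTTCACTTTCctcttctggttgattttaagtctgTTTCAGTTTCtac
Ifit3b (chr19:34607766-34607815, + strand): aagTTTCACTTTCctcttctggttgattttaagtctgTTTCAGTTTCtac
Oas1a (chr5:120907526-120907575, - strand): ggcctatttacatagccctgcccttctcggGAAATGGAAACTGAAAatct
Oas3 (chr5:120777705-120777754, - strand): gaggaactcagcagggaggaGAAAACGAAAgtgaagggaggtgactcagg
Rsad2 (chr12:26456543-26456592, - strand): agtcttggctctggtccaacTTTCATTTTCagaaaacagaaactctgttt
Gbp7 (chr3:142530263-142530312, + strand): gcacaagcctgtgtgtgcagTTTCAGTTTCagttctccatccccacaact
Bst2 (chr8:71537570-71537619, - strand): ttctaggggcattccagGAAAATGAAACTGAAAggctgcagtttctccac

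The windows of Ifit3 and Ifit3b are letter for letter the same, at 2 places on chromosome 19. Reads from such near copies may not be assigned to 1 gene. Of all 75-base words in the annotated transcripts of Ifit3, 41.1% also occur in Ifit3b, and 35.7% of those of Ifit3b occur in Ifit3. For Oas1a the share was 47.6%, all of it with Oas1g. For Gbp7, Herc6 and Rtp4 it was between 10.5% and 11.3%, and for the other 33 members it was under 10%. The values of Ifit3, Ifit3b and Oas1a are therefore less certain than those of the other members, since the handling of such reads is not given in the sources used here. Genes with and without a match to the response element varied over a like range among the libraries. The highest library over the lowest had a median of 2.15 in the 18 genes with a match and of 2.23 in the 11 without.

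Every member was measured well above the limit of detection. Over 351 values (39 genes in 9 libraries) the counts ran from 15, for Mx2 in old PBS 2, to 4690, for Ly6e in old PBS 3, and 0 values were at or under 3 counts. The median member had a mean of 18.9 CPM, against 14.0 CPM for the 16124 genes kept over all libraries. Compared per length of all annotated exons, as FPKM, the most abundant members were Ifi27l2a (58.4 FPKM), Bst2 (49.1 FPKM) and Ly6e (41.4 FPKM). This order depends on the length used, which was 463 bases for Ifi27l2a and 3784 for Ly6e. Without regard to length Ly6e was highest, at a mean of 157 CPM. Bst2 encodes tetherin, which holds budding virus particles at the cell surface, and Ly6e a small membrane-anchored protein. Ifit3 (17.9 FPKM), Isg15 (14.2 FPKM), Igtp (12.6 FPKM), Gbp2 (10.5 FPKM) and Irf7 (10.1 FPKM) followed, and Herc6 was lowest (0.568 FPKM). Bst2 also marks plasmacytoid dendritic cells, the main producers of type I interferon. Siglech, a more specific marker of these cells, had between 1.44 and 4.40 CPM over the 9 libraries and was lowest in young PBS 1 and highest in old PBS 4.

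**Figure D1:**
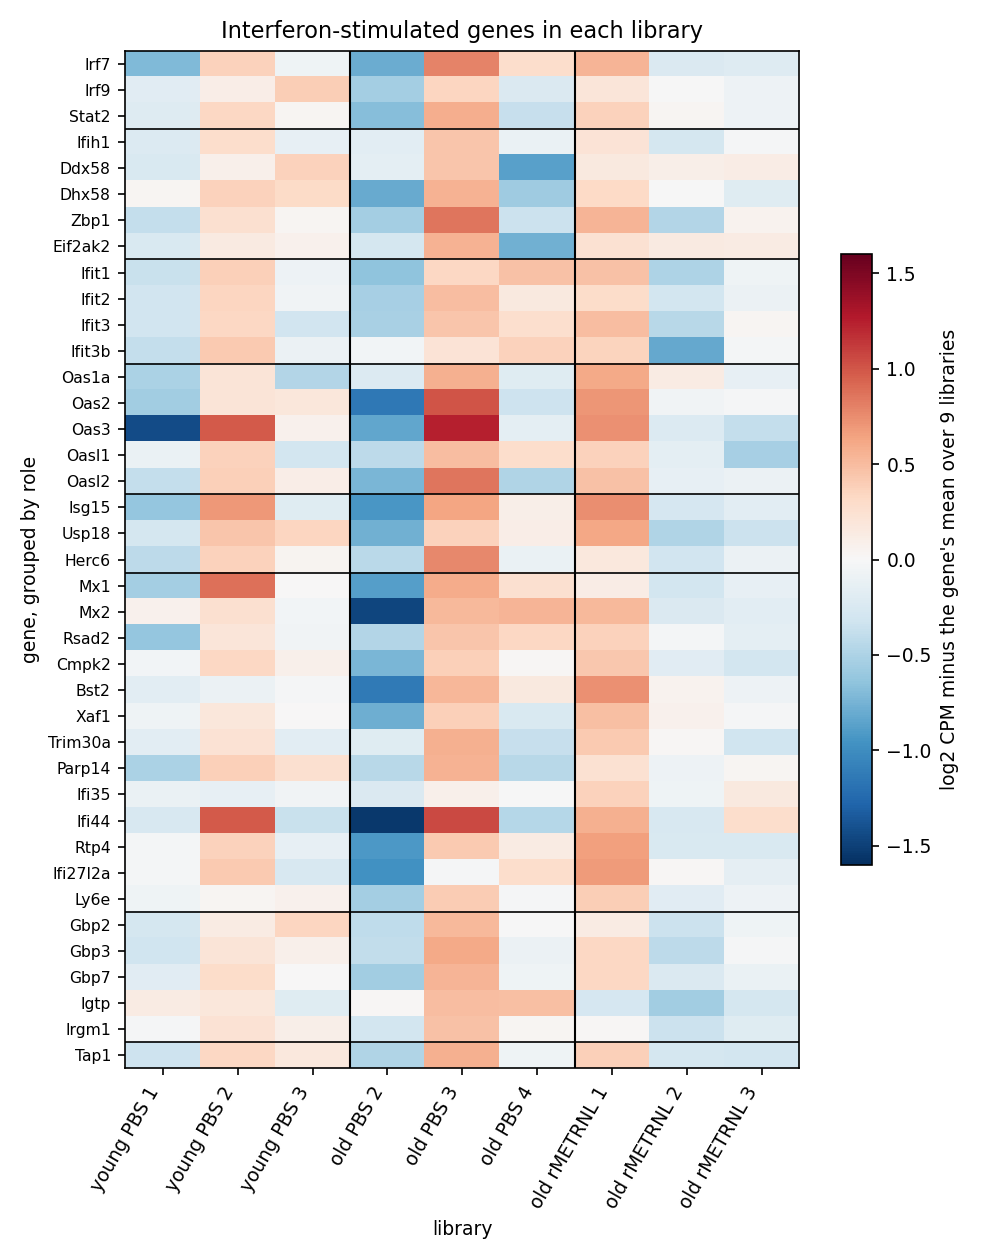
Level of each of the 39 interferon-stimulated genes (rows, grouped by role) in each of the 9 libraries (columns), as log2 CPM minus the mean of that gene over the 9 libraries. Red is above and blue below the gene's mean. The column of old PBS 3 is red for nearly all genes and that of old PBS 2 is blue, and old PBS 3 was the highest library for 24 of the 39 genes.

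The interferon-stimulated genes differed widely between libraries of the same group. Old PBS 3 was the highest of the 9 libraries for 24 of 39 members, against 15.2% of all 16124 genes, and old rMETRNL 1 for 11, against 12.4% of all genes. The remaining 4 members peaked in young PBS 2 (Ifit3b and Mx1), young PBS 3 (Irf9) and old PBS 4 (Mx2). Old PBS 2 was the lowest library for 26 of 39 members, against 16.8% of all genes. All 39 members were higher in old PBS 3 than in old PBS 2, whereas 53.0% of all genes were. The fold between these libraries, both of old muscle given PBS, ran from 1.21 for Ifit3b to 6.08 for Ifi44. It was 4.41 for Oas2, 4.23 for Oas3 and 3.98 for Mx2.

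The mean log2 CPM over the 39 genes summarises this spread. It was 3.70, 4.31 and 3.99 in the young PBS libraries 1, 2 and 3. In old PBS 2, 3 and 4 it was 3.38, 4.53 and 3.93, which are the lowest and the highest of the series in the same group. In the old rMETRNL libraries it was 4.38, 3.78 and 3.87. The group means were 4.00 ± 0.30 (SD, n = 3) for young PBS, 3.95 ± 0.57 (SD, n = 3) for old PBS and 4.01 ± 0.32 (SD, n = 3) for old rMETRNL. The means of the 3 groups lie far within the spread of each group.

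The spread was larger among the members than among genes at large in each group. The median SD of log2 CPM was 0.31 in young PBS, 0.58 in old PBS and 0.37 in old rMETRNL over the members, and 0.21, 0.36 and 0.18 over all genes. For 35 of 39 members the SD was largest in old PBS, which was also so for 68.5% of all genes. Over all genes, pairs of replicates had a chi-square divided by its degrees of freedom of 10.9 to 169, well beyond sampling noise.

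**Figure D2:**
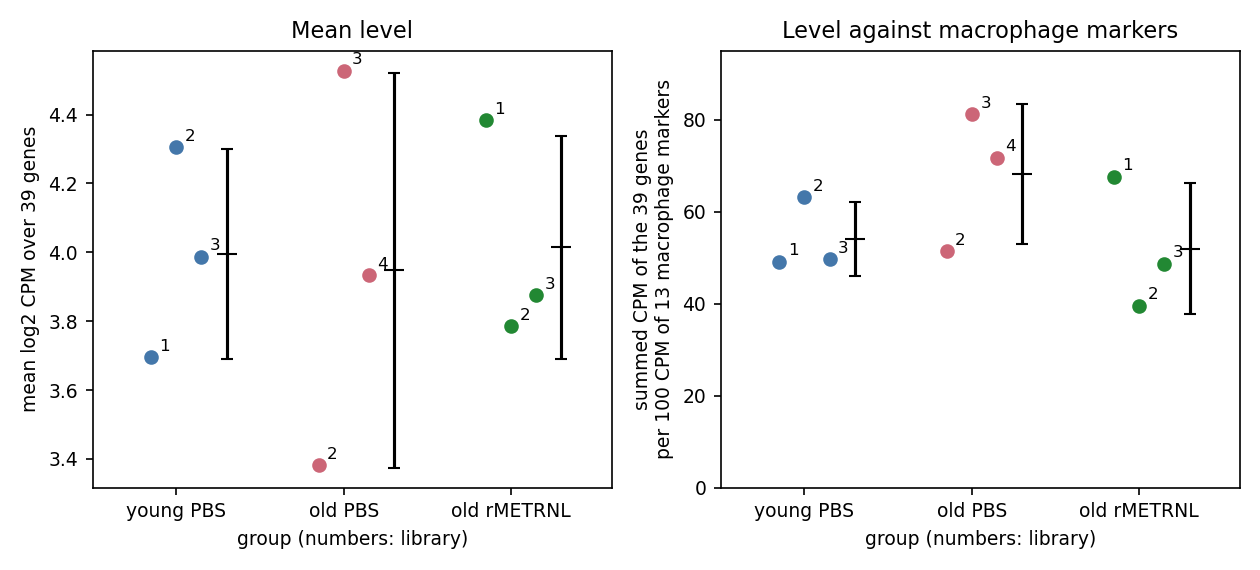
Left, mean log2 CPM over the 39 genes in each library. Right, summed CPM of the 39 genes for every 100 CPM of 13 macrophage markers. Points are libraries with their numbers, and the bars at the right of each group give the mean and SD (n = 3). Old PBS 2 and old PBS 3 are the ends of the range on the left, and old PBS 3 (81.3) and old PBS 4 (71.8) are the highest on the right.

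Levels of the members varied together across the libraries. Over the 9 libraries, which differ in depth and fall into the 3 groups, the mean Pearson correlation over the 741 pairs of members was 0.688, and 615 pairs exceeded 0.5. The mean over pairs of all 16124 genes was 0.00121. Positive and negative pairs cancel in that mean, so it is not a baseline for a list of related genes. Leaving out 1 library moved the mean of the members between 0.625 (without old PBS 3) and 0.758 (without old PBS 4), and with the group means removed it was 0.764. Gbp7, Tap1, Ifit2 and Isg15 followed the others most closely, with mean correlations of 0.825, 0.800, 0.798 and 0.795. Igtp was the least alike, at 0.217, followed by Ddx58 (0.363), Ifit3b (0.476) and Ifi35 (0.494).

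Markers of other cells in the muscle were set beside the members. The 13 markers of macrophages and monocytes, such as Lyz2, Csf1r and Mrc1, summed to 1473, 1580 and 1746 CPM in young PBS, 1136, 1485 and 1161 CPM in old PBS 2, 3 and 4, and 1639, 1896 and 1630 CPM in old rMETRNL. For every 100 CPM of these markers the 39 genes held 49.1, 63.3 and 49.7 CPM in young PBS, 51.5, 81.3 and 71.8 CPM in old PBS, and 67.6, 39.6 and 48.7 CPM in old rMETRNL. The 3 groups overlapped on this ratio. The summed markers were higher in each old rMETRNL library than in any old PBS library, and young PBS overlapped both groups. In bulk RNA, fewer cells of a type and less RNA per cell cannot be told apart. The markers of new muscle fibres given above were highest in old PBS 3, where the members were also highest, and lowest in old PBS 4. The part of these cell types in the level of the members was not tested.

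The first comparison asks whether the genes differed in injured muscle between old and young mice given PBS. By edgeR's quasi-likelihood test no member passed (0 of 39 at an adjusted p of 0.05), while 10 of all 15560 genes tested did (0.0643%). DESeq2 likewise called 0 members and 1.41% of its genes. Taken without adjustment, 0 members and 5.91% of all genes had p under 0.05. The median log2 fold change of the members was 0.00, with 20 above 0 (52.1% of all genes) and 19 below, and that of all genes was 0.01. The range was from -0.37 for Dhx58 to 0.32 for Oas1a. For all 39 members the values of the old and young libraries overlapped, whereas the groups did not overlap for 10.5% of all genes.

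The transcription factors showed how wide the spread was. Irf7, which amplifies the type I interferon response, had 21.9, 46.5 and 34.3 CPM in young PBS and 20.7, 62.4 and 43.6 CPM in old PBS 2, 3 and 4. Old PBS held both the lowest and the highest of these 6 values. The log2 fold change was 0.30 (standard error 0.40, 95% interval from -0.60 up to 1.2, adjusted p = 0.994, edgeR). Irf9 and Stat2, which encode partners in the same DNA-binding complex, had log2 fold changes of -0.22 and -0.12, with intervals from -0.80 to 0.36 and from -0.84 to 0.60.

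Of the sensors, Ifih1 (MDA5), Ddx58 (RIG-I) and Dhx58 (LGP2) recognise viral RNA, Eif2ak2 (PKR) halts translation on binding double-stranded RNA, and Zbp1 recognises left-handed nucleic acid. Their log2 fold changes in old PBS ran from -0.37 to 0.14. Eif2ak2 had 16.3, 21.4 and 20.3 CPM in young PBS and 15.9, 28.4 and 11.4 CPM in old PBS 2, 3 and 4. Its lowest and highest levels were again both in old PBS.

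The 4 IFIT genes, whose products bind foreign RNA, had log2 fold changes between 0.08 and 0.18, all above 0 and none past the test, while 1 of the 4 was above 0 without old PBS 3. Ifit3 had 24.5, 38.1 and 24.4 CPM in young PBS and 21.0, 41.1 and 36.2 CPM in old PBS 2, 3 and 4. The OAS genes encode enzymes that make the messenger that activates RNase L, or inactive relatives of them, and ran from -0.01 to 0.32. Oas2 had 8.49, 14.4 and 14.1 CPM in young PBS and 5.65, 24.9 and 9.93 CPM in old PBS. Old PBS 2 and old PBS 3 were the outermost of the 6 libraries for Oas2, and its 95% interval of -0.97 to 1.24 spans changes in either direction.

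Isg15, a ubiquitin-like protein that is joined to other proteins, had 6.52, 16.2 and 8.74 CPM in young PBS and 5.25, 15.5 and 10.6 CPM in old PBS. The group means were 10.5 ± 5.07 CPM and 10.5 ± 5.13 CPM (SD, n = 3 each). The 95% interval of the log2 fold change, from -0.99 to 0.99, spans changes in either direction. Usp18, which removes ISG15 and restrains the receptor, and Herc6, which attaches it, had log2 fold changes of -0.22 and 0.14. Among the 13 antiviral effectors, 5 were above 0 and 8 below, from -0.22 for Ifi27l2a to 0.27 for Rsad2 (viperin). C57BL/6 mice are known to carry a defective Mx1 gene, and Mx2 is annotated as a polymorphic pseudogene, so their counts measure the transcripts and not working proteins. The 5 GTPases ran from -0.01 to 0.30, and Tap1, which carries peptides to MHC class I, was at -0.01.

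**Figure D3:**
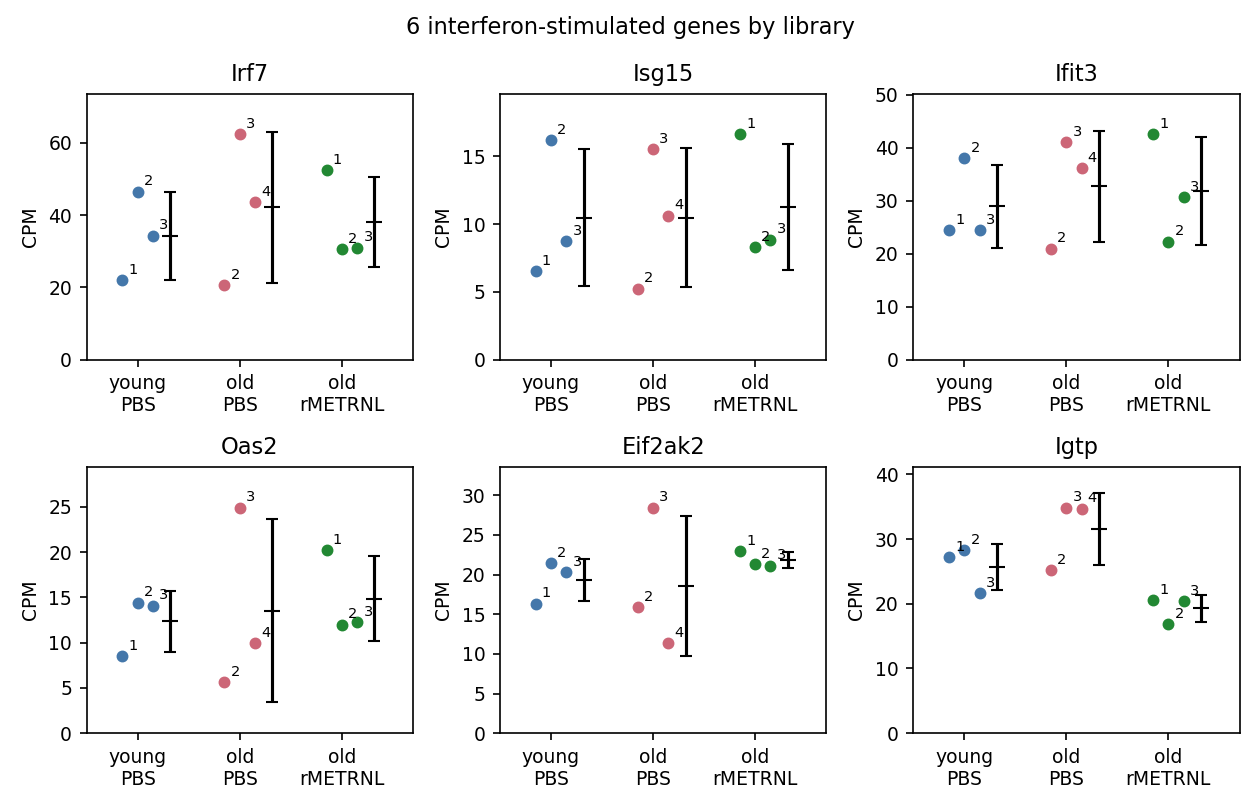
Level in CPM of 6 interferon-stimulated genes, from 5 roles and the GTPase Igtp, in each library. Points carry the library number, and the bars at the right of each group give the mean and SD (n = 3). For Irf7, Oas2 and Eif2ak2 old PBS holds the lowest and the highest library, and for Igtp the 3 old rMETRNL libraries are below all others.

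The second comparison asks whether rMETRNL changed these genes in old injured muscle. No member passed by edgeR (0 of 39), against 17 of 15682 genes (0.108%), and DESeq2 called 0 members and 1.84% of its genes. Without adjustment 1 member and 8.07% of all genes had p under 0.05. The median log2 fold change was 0.00 for the members, with 20 above 0 (49.3% of all genes), and -0.01 for all genes. These libraries of old PBS are the same as in the first comparison, so the differences share them. The extremes were -0.71 for Igtp and 0.37 for Ifi27l2a.

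Igtp (ENSMUSG00000078853), which encodes the GTPase IRGM3 that protects cells against intracellular parasites, was the member with the lowest p-value. It had 27.2, 28.3 and 21.6 CPM in young PBS, 25.2, 34.9 and 34.7 CPM in old PBS 2, 3 and 4, and 20.6, 16.9 and 20.4 CPM in old rMETRNL. All 3 old rMETRNL libraries were below all others, and old and young PBS overlapped. The log2 fold change of rMETRNL against old PBS was -0.71 (standard error 0.18, 95% interval -1.13 to -0.30, unadjusted p = 0.00376, adjusted p = 0.271, edgeR). The adjusted p-value was 0.0797 by DESeq2, 0.0488 by edgeR without a filter on low counts (a fit that called 2.55% of all genes), and from 0.0488 to 1.0 over all alternatives. Without old PBS 3 the log2 fold change was -0.63 (adjusted p = 0.0607, edgeR). Non-overlapping groups with rMETRNL lower were found for 1 of 39 members, which is Igtp, and for 5.69% of all genes. Igtp shares 8.01% of its exon bases, on the same strand, with Irgm2.

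All 5 GTPases had log2 fold changes below 0 with rMETRNL, from -0.03 for Gbp7 to -0.71 for Igtp, with a median of -0.18 and none past the test. With old PBS 3 left out, 3 of the 5 were above 0 (Gbp7, Gbp3 and Gbp2) and the median was 0.11. Irgm1, a regulator of the same family, had 27.4, 46.7 and 34.5 CPM in old PBS and 34.0, 26.5 and 29.3 CPM in old rMETRNL (log2 fold change -0.28, 95% interval -0.76 to 0.21). Its groups overlapped. Gbp2, which acts on membranes that enclose pathogens, had 19.6, 37.1 and 25.7 CPM in old PBS and 28.3, 20.4 and 24.6 CPM in old rMETRNL, and its groups overlapped as well.

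The other roles were spread around 0. The 4 IFIT genes lay between -0.28 and -0.04, while 3 of the 4 were above 0 without old PBS 3. The 5 sensors lay between -0.10 and 0.22. Of the antiviral effectors 10 of 13 were above 0, from -0.22 for Mx1 to 0.37 for Ifi27l2a, against 3 of 13 without old PBS 2. Bst2 had 19.2, 60.8 and 46.8 CPM in old PBS 2, 3 and 4 and 70.0, 43.8 and 39.8 CPM in old rMETRNL, and its log2 fold change of 0.27 had an interval from -0.60 to 1.14.

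The third comparison sets old rMETRNL against young PBS, a pair that does not use the old PBS libraries. Here edgeR called 0 of 39 members and 0 of 15396 genes (0.0%), and DESeq2 called 0 members and 0.0% of its genes. Without adjustment 2 members, Igtp and Irgm1, and 2.41% of all genes had p under 0.05. The median log2 fold change was -0.01, and 19 members were above 0 (50.2% of all genes). Igtp was at -0.41 (95% interval -0.72 to -0.11, unadjusted p = 0.0126, adjusted p = 1.0, edgeR), with groups that did not overlap, as for 2.95% of all genes with rMETRNL lower. Irgm1 was at -0.28 (95% interval -0.55 to -0.01, adjusted p = 1.0, edgeR). Both comparisons of Igtp use the same old rMETRNL libraries. Bst2, with 37.5, 39.4 and 41.4 CPM in young PBS, was at 0.38 (95% interval -0.03 to 0.78), and Oas1a was at 0.45 (95% interval -0.07 to 0.97).

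**Figure D4:**
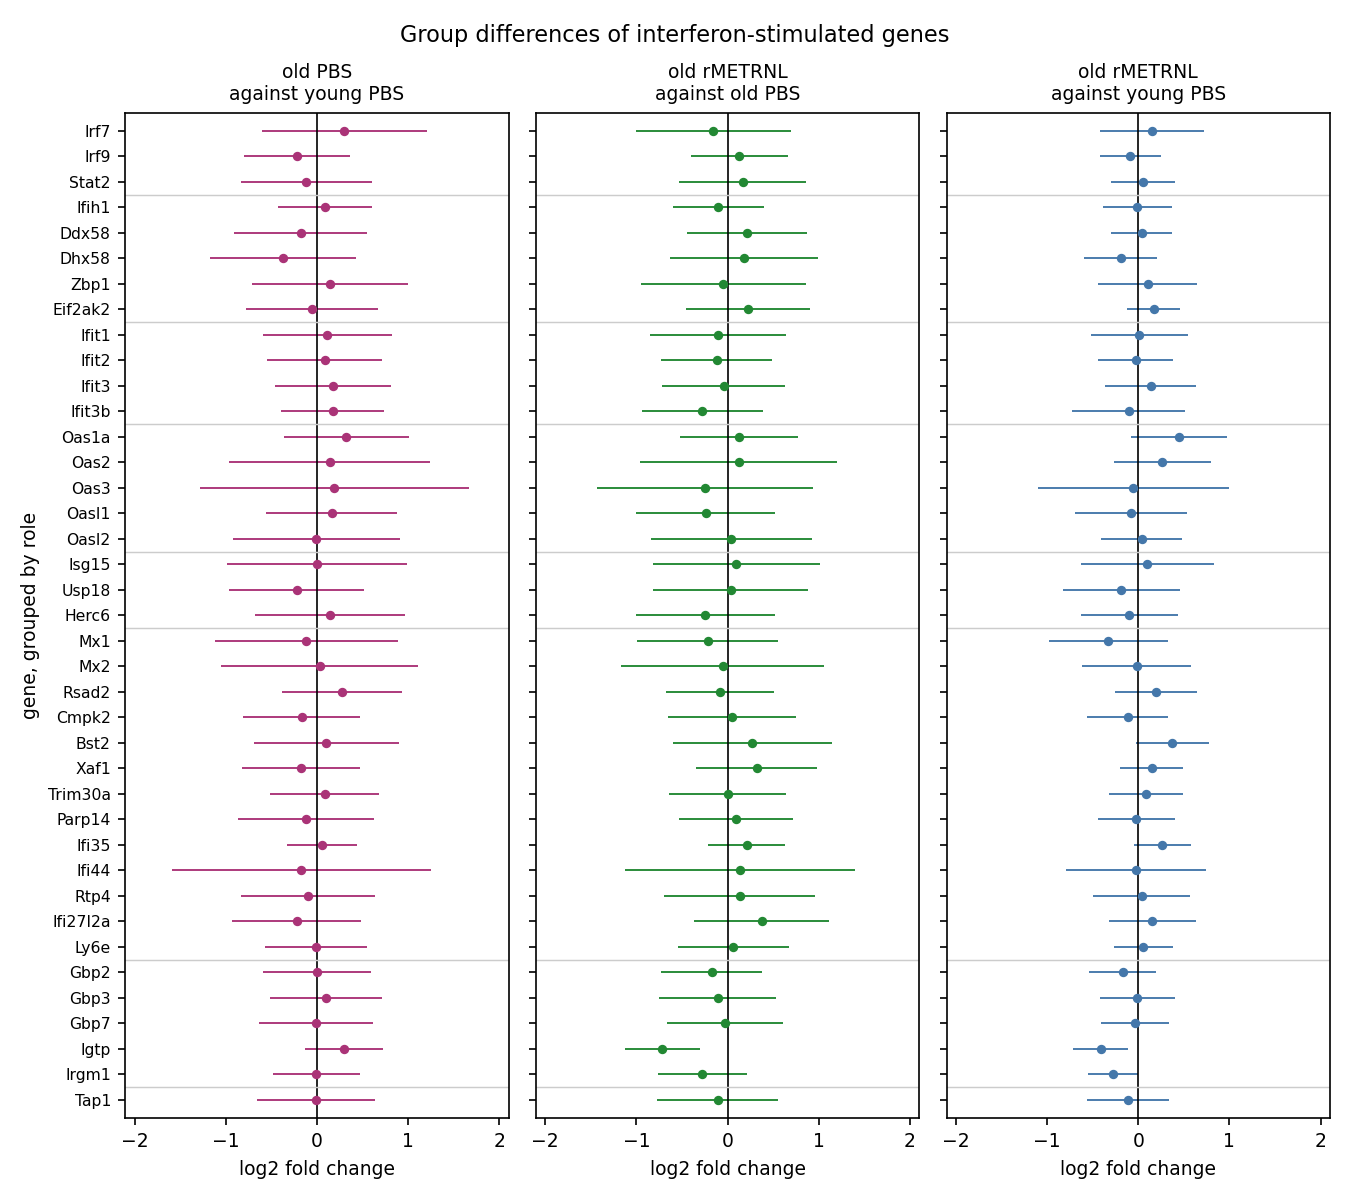
Log2 fold change of each of the 39 genes (rows, grouped by role) in the 3 comparisons, by edgeR. Points are estimates and bars 95% intervals. All intervals span 0 in the left panel, that of Igtp lies below 0 in the middle panel, and those of Igtp and Irgm1 lie below 0 in the right panel.

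The direction of the members turned with the library that was left out, and the old PBS libraries are given first. Averaged over the members, log2 CPM peaked in old PBS 3 (4.53) and was least in old PBS 2 (3.38). Dropping the top or bottom library of a group shifts the level of that group by construction. The medians below therefore describe the spread between libraries and do not test a difference. Members also varied together (mean correlation 0.688), so their counts do not add up as separate evidence. Without old PBS 3, the median in old against young PBS was -0.30 and 35 of 39 members were lower in old PBS, against 50.6% of all genes. Without old PBS 2 it was 0.22 and 36 of 39 were higher, against 53.6% of all genes. For rMETRNL against old PBS the median was 0.32 without old PBS 3, with 35 of 39 higher (51.6% of all genes), and -0.24 without old PBS 2, with 34 of 39 lower (52.3% of all genes). By edgeR 0 members were called in any of these 4 fits. Those without old PBS 3 called 2.52% of all genes in old against young PBS and 9.76% with rMETRNL, and those without old PBS 2 called 0.0124% and 0.0246%.

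Without old PBS 3, 7 members had an unadjusted p-value under 0.05 in old against young PBS, all lower, as 10.3% of all genes were. They were Dhx58, Stat2, Oasl2, Xaf1, Irf9, Eif2ak2 and Ifi44, and the lowest adjusted p was 0.0735, for Dhx58 (edgeR, log2 fold change -0.93). For rMETRNL against old PBS 10 members were higher, against 13.5% of all genes, and Igtp was lower. The lowest adjusted p of the higher members was 0.0544, for Eif2ak2 (edgeR, log2 fold change 0.68). Without old PBS 3, edgeR also called 5 of the 13 macrophage markers higher with rMETRNL, as it did 604 of all 15981 genes. They were Aif1, Cd68, Itgam, Mertk and Mrc1, and in old against young PBS it called Mrc1 lower. With all libraries edgeR called 0 of the 13 with rMETRNL, while 12 were above 0, with a median log2 fold change of 0.27. Without adjustment 4 were higher at p under 0.05, as 550 of all 15682 genes were. The part of macrophages in the level of the members was not tested. Leaving out old rMETRNL 1, another library with high levels, gave a median of -0.24 against old PBS and of -0.21 against young PBS. Then 31 and 33 of 39 members were lower, against 8523 of 16418 and 7991 of 15831 genes. Without young PBS 2, also high, 31 were higher in old against young PBS and 32 with rMETRNL against young PBS. Over all genes 8479 of 16236 and 7976 of 15798 were higher. Without young PBS 1, 28 and 29 of 39 were lower in the same comparisons, against 7648 of 16235 and 7997 of 15849 genes.

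**Figure D5:**
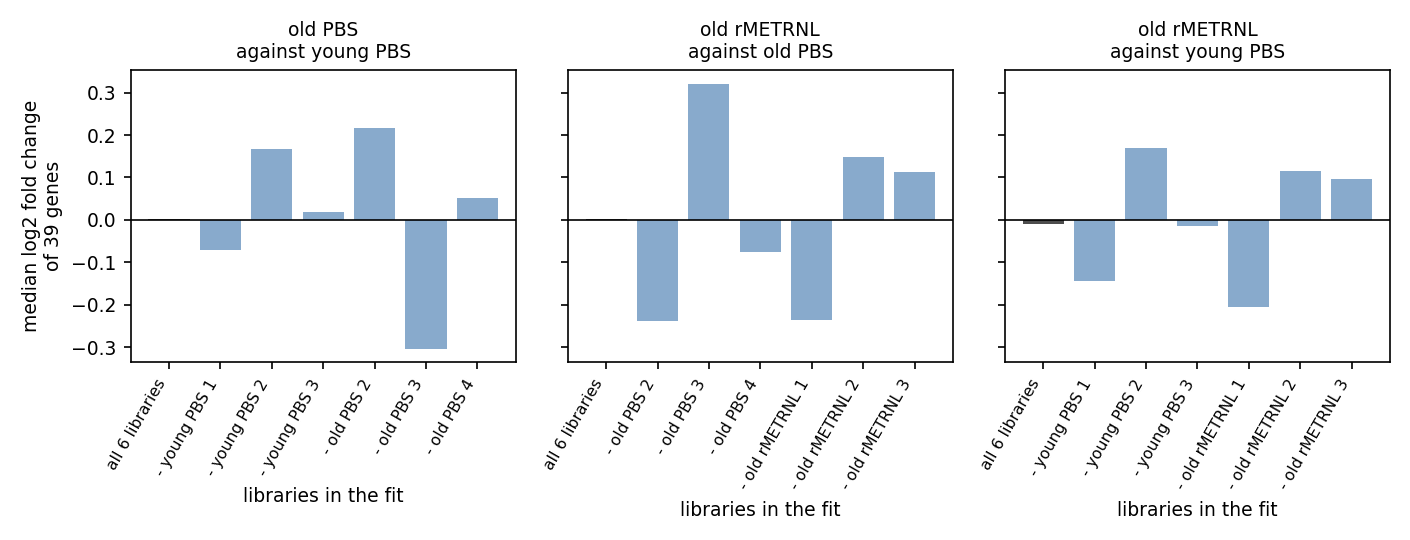
Median log2 fold change of the 39 genes in each comparison with all 6 libraries and with each library left out in turn (the minus sign marks the library left out). The bars for all libraries are at 0.00, 0.00 and -0.01. Leaving out old PBS 3 and leaving out old PBS 2 move the median to opposite sides of 0 in both comparisons with old PBS.

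The roles did not follow the same order in the 3 old PBS libraries. In old PBS 4 the IFIT genes stood 0.31 log2 units above their mean over the 9 libraries, next to 0.37 in old PBS 3, while the sensors stood at -0.53, the lowest of any library. The median fold of old PBS 3 over old PBS 4 was 1.01 for the IFIT genes, 2.30 for the sensors and 2.51 for the OAS genes. Ifit1 had 17.3 and 19.1 CPM in old PBS 3 and old PBS 4, whereas Ddx58 had 26.7 and 10.8 CPM. In old PBS 2 all roles were low, from -0.32 for the GTPases to -0.78 for the antiviral effectors. This split was seen in 1 library and has no replicate.

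The interferons themselves were hardly counted. Of 21 ligand genes, none was high enough to test, and 14 were at 0 in all libraries. Ifng, which encodes interferon gamma, had 1, 0 and 2 counts in young PBS, 3, 4 and 0 counts in old PBS 2, 3 and 4, and 0, 2 and 5 counts in old rMETRNL. Ifnb1 had 3 counts in old PBS 4 and 0 in the other libraries. A count of 0 allows a level of up to 3 counts, which is between 0.131 and 0.202 CPM, so differences of the ligands were not detectable at this depth. This floor covers counting error only.

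The receptors were well measured and none passed the test. Of 6 receptor genes 5 were tested, and Ifnlr1, a chain of the type III receptor, had at most 10 counts. Ifnar1 had 38.7, 40.6 and 45.7 CPM in young PBS, 35.6, 46.3 and 23.5 CPM in old PBS 2, 3 and 4, and 50.7, 52.2 and 40.0 CPM in old rMETRNL. Its log2 fold change was -0.25 in old against young PBS and 0.43 with rMETRNL against old PBS (adjusted p = 0.994 and 0.690, edgeR). Ifnar2 was at -0.10 and 0.47, Ifngr1 at 0.12 and 0.05, Ifngr2 at -0.02 and 0.03, and Il10rb at -0.14 and 0.14 in the same comparisons. Without old PBS 3, edgeR called Ifnar2 higher with rMETRNL against old PBS, in a fit that called 9.76% of all genes.

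Of 18 signalling genes, 0 were called in any comparison by edgeR or DESeq2, with a median log2 fold change of -0.15 in old against young PBS and 0.12 with rMETRNL. Irf1, a target and mediator of interferon gamma, had 25.3, 29.7 and 30.4 CPM in young PBS, 17.4, 31.7 and 25.2 CPM in old PBS 2, 3 and 4, and 36.8, 25.8 and 27.6 CPM in old rMETRNL. It was lowest in old PBS 2, as most members were, and its groups overlapped in all 3 comparisons. Of 8 inhibitors of the pathway 7 were tested and 0 called. Leaving out old PBS 3, edgeR called Ptpn6 higher with rMETRNL than in old PBS, in a fit that called 9.76% of all genes. Trex1 was listed at 0 in all libraries.

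A further 49 interferon-stimulated genes outside the 39 were all tested, and 0 were called in any comparison by edgeR or DESeq2. Their median log2 fold change was -0.05 in old against young PBS, 0.11 with rMETRNL against old PBS and 0.09 with rMETRNL against young PBS. The most abundant were Slfn5, Samhd1 and Ifitm3. Their summed level was between 905 CPM, in old PBS 2, and 1436 CPM, in old rMETRNL 1, with 1422 CPM in old PBS 3, so the same 3 libraries were at the ends as for the members. Without old PBS 3, edgeR called 2 of the 49, Helz2 and Slfn2, higher with rMETRNL than in old PBS. That fit called 604 of all 15981 genes higher.

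A list of 32 genes of the interferon gamma response, led by the MHC class I genes H2-D1, H2-K1 and B2m, had 0 called by edgeR in each comparison. With rMETRNL against old PBS its median log2 fold change was -0.17, with 8 of 28 tested genes above 0. Without old PBS 3 the median was 0.14. Of the 28 genes, 5 had an unadjusted p-value under 0.05 with all libraries, all lower, as 4.57% of all genes were. They were Gbp4, Gbp5, Gbp6, Gbp10 and Tgtp1, named after their values were seen, and all are GTPases. Gbp6 had 8.01, 11.8 and 8.93 CPM in old PBS 2, 3 and 4 and 4.60, 3.51 and 5.47 CPM in old rMETRNL, and was at 4.68, 6.88 and 6.88 CPM in young PBS. The old PBS values were above all others. Its log2 fold change was -1.08 with rMETRNL against old PBS (standard error 0.25, adjusted p = 0.190, edgeR). DESeq2 called it lower, as did edgeR without old PBS 3, in fits that called 1.84% and 9.76% of their genes. Gbp6 and Gbp10 belong to a cluster of similar genes, between which reads may be split. In old against young PBS, Ccl5, a chemokine made by T cells, had 13.5, 11.6 and 13.3 CPM against 7.22, 5.21 and 6.26 CPM (log2 fold change 1.03, standard error 0.20, adjusted p = 0.142, edgeR). DESeq2 called it higher, as did edgeR without old PBS 3, in fits that called 1.41% and 2.52% of their genes.

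Markers of T cells and NK cells, the main source of interferon gamma, were set beside this list. Of 13 such genes, 7 had an unadjusted p-value under 0.05 in old against young PBS, all higher (3.5% of all genes). In rMETRNL against old PBS 5 had, all lower (4.57% of all genes). EdgeR called 0 in either comparison. Over the whole list 8 of 13 were above 0 in old against young PBS and 5 of 13 with rMETRNL against old PBS. Cd3e, a chain of the T cell receptor complex, had 1.85, 1.5 and 2.42 CPM in young PBS, 3.77, 2.67 and 3.27 CPM in old PBS, and 1.5, 0.509 and 1.81 CPM in old rMETRNL. The summed level of the list was 19.7 to 26.6 CPM in young PBS, 26.8 to 33.5 CPM in old PBS and 21.7 to 36.6 CPM in old rMETRNL. The part of these cells in the levels of Igtp, Gbp6 and Ccl5 was not tested.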

How the data were processed

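Bulk RNA of 9 libraries was analysed. The authors deposited raw counts of reads per Ensembl gene, without normalization and with replicates apart. The submitters' processing notes name STAR, featureCounts and mm9, without versions. The gene identifiers match GENCODE vM21 on GRCm38 (54495 of 54532), whose coordinates are used. Annotation, strand setting and handling of multi-mapping reads are not given in the sources used here.

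Groups were compared in pairs on 6 libraries with edgeR 4.0.16 in R 4.3.3 (filterByExpr, TMM, glmQLFit, glmQLFTest, Benjamini-Hochberg over all genes tested, threshold 0.05). Levels are CPM with TMM factors of 9 libraries, and FPKM uses exon lengths. The SD of each gene was taken on log2 CPM after adding a prior count (2). DESeq2 1.42.0, other filters and scalings, a fit of 9 libraries, a replicate block and leaving out each library were alternatives. Scripts were tested on simulated data. Whether library numbers pair the libraries is not known. Same-number correlations of deviations ran from -0.32 to 0.41, and with 3 libraries a group they cannot decide it.

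The members and lists were chosen with earlier results of these data known. Named were all 39 members, and of each list the genes that passed by edgeR and the 3 of highest level, ligands above 3 counts, all receptors and Irf1, and a gene of the rule is not reported here. Other genes were named after their values were seen.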

Additional observations from a re-analysis of the deposited data

How the results depend on the processing

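In each comparison 0 of 39 members passed under each alternative run, except that 1, Igtp, passed against old PBS without a filter on low counts. Counts over all genes moved. For old against young PBS (10 genes) they were 354 without a filter, 3 with at least 10 counts in every library, 265 by DESeq2, 63 in the fit of all 9 libraries and 2 to 401 with 1 library left out. For rMETRNL against old PBS (17 genes) they were 740, 1, 357, 71 and 3 to 1560 in the same order. For rMETRNL against young PBS (0 genes) they were 132 without a filter and 0 to 1 with 1 library left out. The counts of 401 and 1560 were those without old PBS 3. The median log2 fold change of the members ran, with 1 library left out, from -0.30 to 0.22, from -0.24 to 0.32 and from -0.21 to 0.17 in the 3 comparisons. With the replicate number as a block, although it is not known whether the numbers pair the libraries, 11, 65 and 0 genes and 0 members were called. The medians of the members were then -0.15, -0.14 and 0.01. The signs of members that passed no test were unstable. With 1 library left out 72, 67 and 60 of 234 values changed sign. With all libraries kept 20, 16 and 5 of 234 did. With 3 libraries a group the 95% intervals limit what can be seen, and an adjusted p-value above 0.05 does not show that levels were equal.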
